A study of Mus musculus with 12 samples.

Results

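The genes described here are those of myelin and of the oligodendrocyte lineage, the glial cells that wrap axons in myelin. They are 33 of the 24421 gene symbols in the count files and were followed over 12 libraries of mouse dorsal raphe (DR). They were chosen by name from general knowledge of the lineage and not by a measured value, but with earlier results of these data known. Of the 33, 12 code for myelin structure, 8 for myelin lipid and metabolism, 2 for oligodendrocyte gap junctions, 2 are mature-stage transcription factors, 4 are lineage transcription factors, 2 mark precursors and 3 mark committed or newly formed cells.

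The study asked which transcripts of the DR differ when STAT3, a transcription factor activated by cytokine receptors, is lost from serotonergic cells. STAT3 KO mice (8 libraries, 4 females and 4 males) were Sert Cre/+; Stat3 fl/fl, and controls (4 libraries, 2 females and 2 males) were Sert Cre/+; Stat3 fl/+ littermates on the same C57BL/6 x 129 background, between 8 and 16 weeks old when experiments began. Cre was driven by the serotonin transporter gene in both groups and the controls carried 1 floxed Stat3 allele, so the line was not made to delete Stat3 in oligodendrocytes, and the control is not a wild-type animal. Each library came from 1 animal and from a bulk piece of tissue below the aqueduct, so fewer cells of a type and less RNA per cell cannot be told apart.

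Oligodendrocyte precursors carry the PDGF receptor alpha and the chondroitin sulfate proteoglycan of Cspg4, divide in the adult brain and pass through a committed stage marked by Gpr17, Bcas1 and Enpp6. SOX10, OLIG2 and NKX2-2 set the lineage, and MYRF then drives the genes of myelin proteins and lipids in the mature cell. The brainstem is rich in myelinated tracts, and a DR sample therefore holds many mature oligodendrocytes beside its serotonergic neurons.

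The libraries held 24379588 to 29645210 counts on genes, and no member was near the limit of detection, with counts from 258 for Enpp6 to 230039 for Mbp. All 33 genes passed the expression filter. The serotonergic marker Tph2 was read at 539 to 883 CPM (counts relative to the library total, on the usual scale) and 0 of 12 libraries went against the sex on its label. The level of Stat3 in whole tissue was 65.9 ± 1.26 CPM in the 4 controls (mean ± SD) and 66.6 ± 2.90 CPM in the 8 STAT3 KO animals. A count per gene from bulk tissue does not resolve deleted exons, so this value does not check the genotype. Control 4, STAT3 KO 8 and STAT3 KO 16, the libraries left out together in what follows, were high in markers of neighbouring tissue. No fixed distance from the mean separated them from the other libraries. The mean of 10 forebrain excitatory neuron genes in control 4 was 1.98 above the mean of the libraries on the log2 scale, and 9 choroid plexus genes were 1.50 above it in STAT3 KO 8 and 1.79 in STAT3 KO 16, which was also the highest library for 10 cerebellar genes (2.75 above the mean). Other libraries were also far from the mean in 1 list, STAT3 KO 10 (1.67), control 3 (1.06) and STAT3 KO 15 (-1.07) in cerebellar genes and control 13 (-1.28) in ependymal genes, for which control 4 was lowest (-1.62). Summed over each list, choroid plexus genes reached 22.01 to 28.03 CPM in controls and 24.5 to 249 CPM in STAT3 KO, forebrain genes 365 to 985 CPM and 387 to 515 CPM, and cerebellar genes 168 to 334 CPM and 173 to 823 CPM. The fold changes and counts for the members are those of all 12 libraries unless stated, and the values without these 3 libraries are given together after the members. Of the lists, 7 of 7 ependymal genes had a higher fitted level in STAT3 KO (median log2 fold change 0.77), 10 of 10 forebrain genes a lower one (-0.67) and 9 of 10 cerebellar genes a higher one (0.50), with 0 called in each. The fold change was also above 0 for 8 of 8 choroid plexus genes tested (0.38) and 9 of 10 astrocyte genes (0.050), and below 0 for 7 of 8 endothelial genes (-0.035), again with 0 called. The part of this neighbouring tissue in the results was not tested.

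Windows at starts of transcription are shown for members from 2 of the groups of genes that moved together over the animals. Olig2, a lineage factor from another such group, is also shown, so that the sequences can be read beside that covariation. The windows run from 250 bases before to 50 bases after a start of transcription given by a RefSeq entry (GRCm38.p6), on the strand of the gene. The set of entries used held 24 of the 33 members in 32 entries. Car2, Olig1, Mbp, Sox10, Trf, Bcas1, Gpr17, Myrf and Fa2h had no entry in that set. Capitals mark the letters ACAANG (the core bound by SOX factors), CTGGCAC and CTGGTAC (forms of the MYRF motif) and TATAAA on either strand, with overlapping matches counted separately. None of the 6 windows shown held CTGGCAC or CTGGTAC.
Mobp, Mal and Apod, which followed each other over the animals, lie at chr9:120149492-120149791 (plus strand), chr2:127656646-127656945 (minus strand) and chr16:31314759-31315058 (minus strand).
Mobp: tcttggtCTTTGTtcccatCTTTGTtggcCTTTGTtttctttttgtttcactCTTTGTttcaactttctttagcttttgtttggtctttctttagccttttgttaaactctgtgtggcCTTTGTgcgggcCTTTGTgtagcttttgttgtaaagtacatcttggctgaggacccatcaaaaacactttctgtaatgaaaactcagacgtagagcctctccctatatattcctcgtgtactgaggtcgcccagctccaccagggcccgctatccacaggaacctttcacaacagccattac
Mal: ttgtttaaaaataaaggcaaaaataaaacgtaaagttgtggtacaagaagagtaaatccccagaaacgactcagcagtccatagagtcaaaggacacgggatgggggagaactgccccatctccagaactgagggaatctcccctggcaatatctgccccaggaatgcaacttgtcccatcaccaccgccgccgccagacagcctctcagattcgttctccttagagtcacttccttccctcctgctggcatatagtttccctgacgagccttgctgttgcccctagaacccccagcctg
Apod: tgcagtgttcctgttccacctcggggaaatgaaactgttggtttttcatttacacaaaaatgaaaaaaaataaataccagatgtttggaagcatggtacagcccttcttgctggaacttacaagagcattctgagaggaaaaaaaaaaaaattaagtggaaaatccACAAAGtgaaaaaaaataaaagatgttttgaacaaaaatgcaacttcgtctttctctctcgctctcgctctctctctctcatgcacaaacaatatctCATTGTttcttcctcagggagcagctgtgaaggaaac
Aspa and Qdpr, which followed Mbp, lie at chr11:73324588-73324887 (minus strand) and chr5:45450180-45450479 (minus strand), and Olig2 lies at chr16:91225300-91225599 (plus strand). The Aspa window lies inside the gene, whose 5′ end in GENCODE vM21 is at 73329596, and so follows another start.
Aspa: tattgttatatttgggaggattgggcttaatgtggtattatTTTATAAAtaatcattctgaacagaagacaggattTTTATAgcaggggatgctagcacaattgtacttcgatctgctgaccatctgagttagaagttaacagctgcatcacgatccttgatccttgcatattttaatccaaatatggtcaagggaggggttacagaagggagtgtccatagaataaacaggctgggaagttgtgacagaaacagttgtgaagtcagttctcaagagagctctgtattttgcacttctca
Qdpr: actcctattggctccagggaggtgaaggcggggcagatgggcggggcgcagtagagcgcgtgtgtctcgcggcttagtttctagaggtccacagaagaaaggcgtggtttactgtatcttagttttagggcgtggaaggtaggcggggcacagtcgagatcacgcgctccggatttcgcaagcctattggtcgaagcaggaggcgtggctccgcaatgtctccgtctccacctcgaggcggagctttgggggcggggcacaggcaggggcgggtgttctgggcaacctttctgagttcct
Olig2: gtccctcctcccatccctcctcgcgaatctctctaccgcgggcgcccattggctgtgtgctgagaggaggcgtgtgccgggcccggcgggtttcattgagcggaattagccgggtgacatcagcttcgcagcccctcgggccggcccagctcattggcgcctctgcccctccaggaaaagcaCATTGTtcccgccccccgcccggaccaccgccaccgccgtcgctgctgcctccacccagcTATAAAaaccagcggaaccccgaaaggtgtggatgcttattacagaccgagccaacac

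The Mobp window held ACAANG 6 times, that of Apod 2 times and that of Mal not at all, so the 3 genes of the closest group did not share these letters. The windows of Aspa and Qdpr differed as much, with 3 matches of TATAAA and a GC content of 39% in Aspa and no match and 60.7% in Qdpr. Olig2 held 1 match of ACAANG and 1 of TATAAA. Over all 32851 promoter windows of the same length, 41.2% held ACAANG, 5.01% CTGGCAC, 2.24% CTGGTAC and 13.6% TATAAA. Of the 32 windows of the members, 59.4%, 12.5%, 3.13% and 9.38% did. A match describes the letters and not a bound site.

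Together the members took 1.34% to 1.75% of the counts of a library, and Mbp alone 40.9% to 47.4% of those. Per kilobase of annotated exon, Mbp (myelin basic protein, which holds the inner faces of the myelin membrane together) stood at 787 ± 82.01 RPKM (reads per kilobase of exon, scaled to library size, mean ± SD over n = 12). It was followed by Trf (the iron carrier transferrin) at 344 ± 28.3, Qdpr at 274 ± 29.8, Plekhb1 at 213 ± 21.01 and Cnp at 212 ± 17.7 RPKM. The last 2 levels did not differ beyond their spread. Mal, Apod, Cldn11, Car2, Mag, Bcas1, Olig1, Mobp and Mog lay between 187 ± 24.7 and 99.4 ± 8.29 RPKM. Lowest of the 33 were Pdgfra at 6.67 ± 0.543, Nkx2-2 at 4.51 ± 0.585, Enpp6 at 2.37 ± 0.411 and Cspg4 at 2.22 ± 0.22 RPKM, and the last 2 were again within each other's spread. Exon lengths are those of GENCODE vM21, which need not be the gene models of the count files.

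Over the 12 animals a member's highest CPM was 1.19 to 2.17 times its lowest (median 1.40 times). The SD of log2 CPM had a median of 0.14 over the members and 0.12 over all 15453 genes tested. Enpp6 (a phosphodiesterase of newly formed oligodendrocytes, SD 0.27), Opalin (a membrane protein of mature cells, 0.28) and Apod (a lipid-binding lipocalin, 0.25) varied most. The connexin gene Gjc3 (0.075) and the fatty acid hydroxylase gene Fa2h (0.085) varied least. STAT3 KO 5 was the highest library for 10 members and STAT3 KO 8 for 10 others, while STAT3 KO 7 was the lowest for 10, STAT3 KO 6 for 9 and STAT3 KO 8 for 7.

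**Figure D1:**
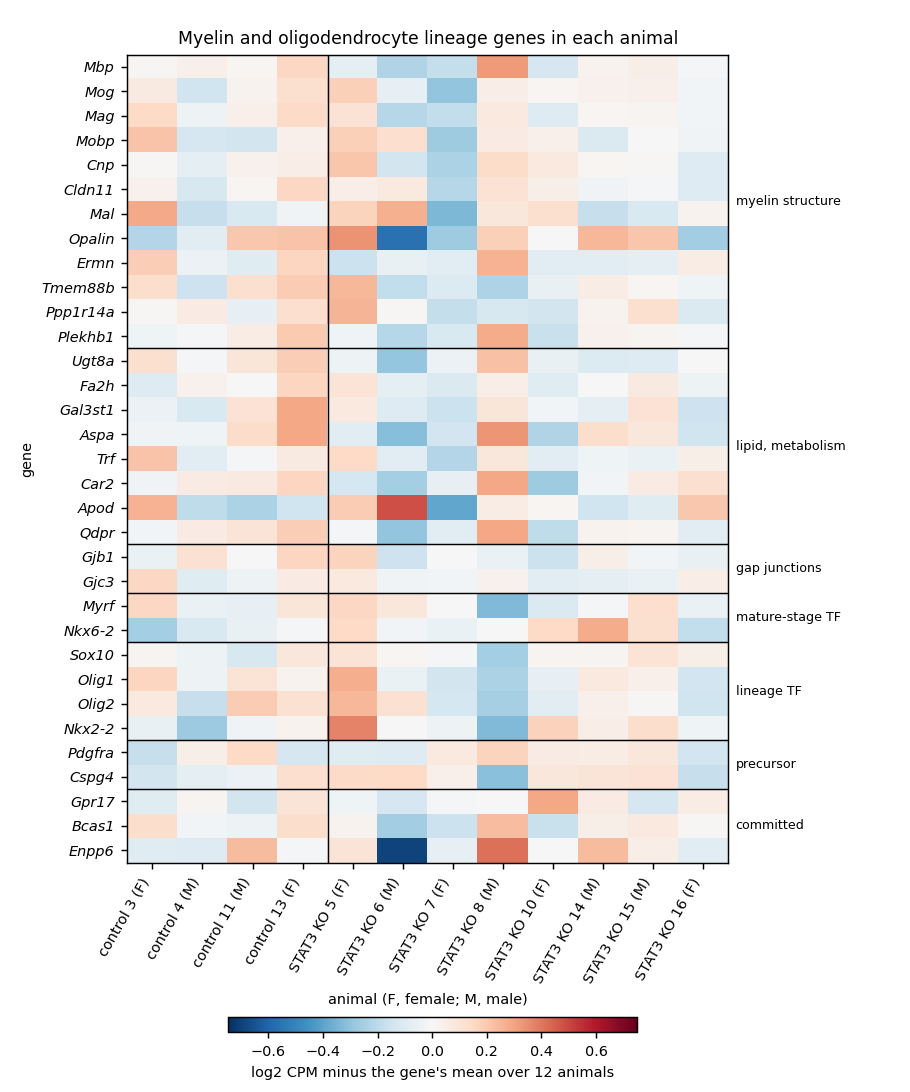
Heat map of 33 genes (rows, in italics, grouped by role) in 12 animals (columns, controls left of the line). Colour gives log2 CPM minus the mean of the gene over the animals, red above and blue below it. Enpp6, Opalin and Apod hold the strongest colours, and STAT3 KO 8 is red for Mbp, Aspa, Car2 and Enpp6 and blue for Myrf, Olig1, Olig2, Nkx2-2, Sox10 and Cspg4.

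Between genotypes, none of the 33 genes was called. With edgeR's quasi-likelihood test, 0 of 33 had an adjusted p below 0.05, as did 0 of all genes tested (0%), and the smallest adjusted p of a member was 0.615. Before adjustment, 2 members had a p below 0.05, Ugt8a and Mag, beside 7.66% of all genes. DESeq2 called 0 members and 6 of 20056 genes, and gave 2 members and 6.20% of all genes at that level. Permuting the genotypes exactly, over 495 splits into 4 and 8, 0 members had a p below 0.05 (7.23% of all genes), with 0.00202 as the smallest p possible. The genotypes overlapped for every member (0 of 33 without overlap, 0.492% of all genes). In the fit of all 12 animals, the 95% intervals of the 33 members lay between -0.37 and 0.38 on the log2 scale. Each holds for 1 gene taken alone and not for the 33 together.

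Most of the fitted differences lay on one side of 0. The fold change was below 0 for 27 of the 33 members and for 50.6% of all genes, with a median of -0.067 against -0.0011. Scaled by library totals alone it was below 0 for 23 of 33, with a median of -0.044 against 0.022 for all genes. By role, 12 of 12 myelin structure genes and 7 of 8 lipid and metabolism genes lay below 0, with medians of -0.059 and -0.11. Both gap junction genes, 1 of 2 mature-stage factors, 3 of 4 lineage factors, 0 of 2 precursor genes and 2 of 3 committed-stage genes did so. Members covaried over the animals, so these counts are not independent observations.

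**Figure D2:**
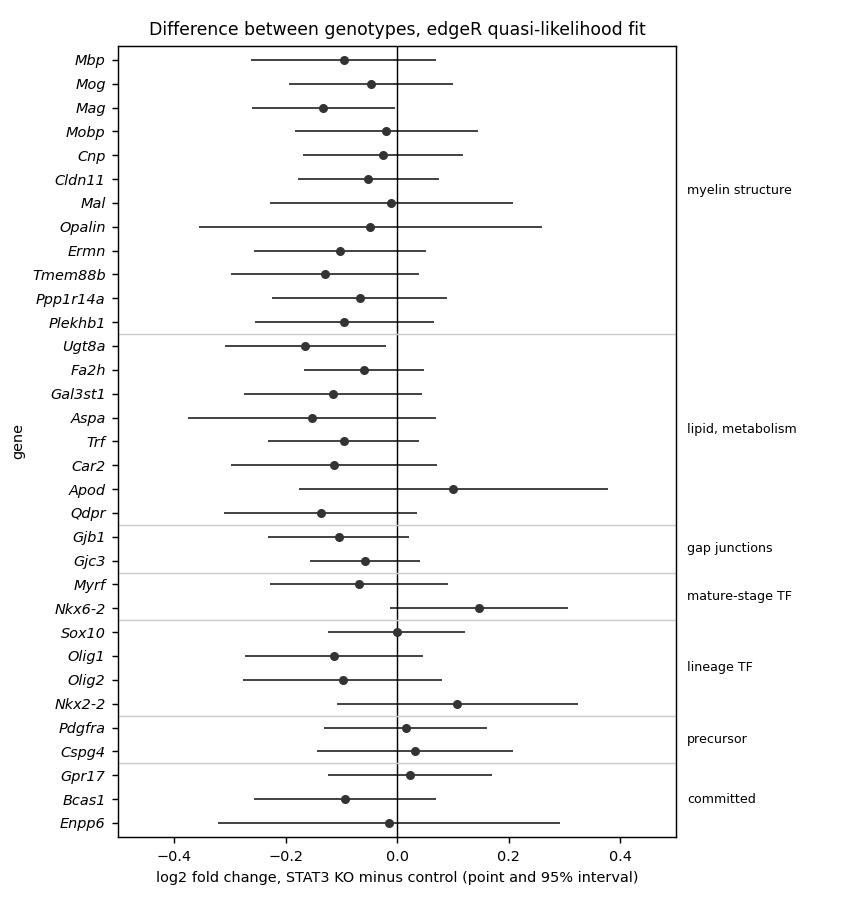
Log2 fold change between STAT3 KO and control (horizontal axis, points) with its 95% interval (bars) for each of the 33 genes, grouped by role. Intervals of Ugt8a and Mag stop short of 0, those of the other genes include it, and 27 points lie left of 0.

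Among the structural genes, Mbp (ENSMUSG00000041607) was read at 6674, 6816, 6705 and 7390 CPM in controls 3, 4, 11 and 13, the order used throughout, and at 5681 to 8290 (median 6446) CPM in the 8 STAT3 KO animals. The highest and the 5 lowest values were all from STAT3 KO, which spread around the narrow range of the controls. Its log2 fold change was -0.10 (SE 0.078, adjusted p = 0.841), and it was -0.15 without STAT3 KO 8 and -0.061 without control 13. Mag (ENSMUSG00000036634, chromosome 7, 30899176 to 30914873), an adhesion protein of the membrane layer that faces the axon, was read at 647, 566, 598 and 644 CPM in the same controls and at 502 to 627 (median 581) CPM in STAT3 KO. Controls 3 and 13 lay above every STAT3 KO animal and controls 4 and 11 inside their range. The log2 fold change of Mag was -0.13 (SE 0.06), and its unadjusted p of 0.0444 became 0.646 after adjustment.

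Mog (ENSMUSG00000076439, chromosome 17, 37010743 to 37023398), a glycoprotein of the outermost myelin layer, was read at 177, 152, 172 and 184 CPM in controls and 137 to 191 (median 172) CPM in STAT3 KO. Control values lay within the STAT3 KO range, and the log2 fold change was -0.047 (SE 0.069, adjusted p = 0.928), or -0.0095 without STAT3 KO 7, -0.011 without control 13 and -0.097 without control 4. Cnp (ENSMUSG00000006782, chromosome 11, 100574904 to 100591729), a phosphodiesterase of uncompacted myelin, was read at 774, 736, 787 and 799 CPM in controls and 655 to 892 (median 776) CPM in STAT3 KO. As for Mog, the lowest value was that of STAT3 KO 7 and the highest that of STAT3 KO 5, and the log2 fold change was -0.026 (SE 0.067). Mobp (ENSMUSG00000032517, chromosome 9, 120149707 to 120181484), a protein of compact myelin, was read at 812, 642, 635 and 718 CPM in controls and 581 to 791 (median 711) CPM in STAT3 KO. Control 3 was the highest of all animals and control 11 among the lowest, and the log2 fold change was -0.019 (SE 0.077).

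The other 7 structural genes had log2 fold changes from -0.13 (Tmem88b) to -0.01 (Mal). Cldn11, the tight junction protein between myelin layers, differed by -0.052 (SE 0.059), Ermn, a cytoskeletal protein of mature cells, by -0.10 (SE 0.073), and Plekhb1 by -0.094 (SE 0.075). Ppp1r14a, an inhibitor of a protein phosphatase, and Opalin differed by -0.067 (SE 0.074) and -0.048 (SE 0.14). The interval of Opalin, -0.36 to 0.26, was the widest of the group. In CPM (mean ± SD, 4 controls and 8 STAT3 KO animals), Cldn11 stood at 299 ± 23.4 and 293 ± 20.6, Mal at 516 ± 77.1 and 520.2 ± 69.7 and Opalin at 39.9 ± 5.83 and 39.2 ± 8.1. Ermn stood at 232 ± 22.3 and 219.9 ± 20.98, Tmem88b at 187 ± 19.2 and 173 ± 18.6, Ppp1r14a at 36.1 ± 1.97 and 35.02 ± 3.76 and Plekhb1 at 817 ± 60.8 and 777 ± 85.9 CPM. The control and STAT3 KO ranges overlapped for each of these 7 genes.

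Ugt8a (ENSMUSG00000032854, chromosome 3, 125865271 to 125938619), the enzyme that makes galactosylceramide, the main glycolipid of myelin, had the largest difference of the 33. It was read at 166, 152, 163 and 174 CPM in controls and at 125 to 178 (median 148) CPM in STAT3 KO. STAT3 KO 8 was the highest of all 12 animals, and 6 of the other 7 STAT3 KO animals lay below every control. The log2 fold change was -0.17 (SE 0.068, unadjusted p = 0.0278, adjusted p = 0.615), with an exact permutation p (two-sided) of 0.099. Without STAT3 KO 8, control 4 and STAT3 KO 16 it was -0.25 (SE 0.052, adjusted p = 0.101).

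Aspa (ENSMUSG00000020774, chromosome 11, 73304992 to 73329596), which splits N-acetylaspartate taken up from axons, was read at 50.2, 49.98, 56.3 and 62.6 CPM in controls and 40.9 to 64.4 (median 47.3) CPM in STAT3 KO. STAT3 KO 8 was again the highest animal, and 5 STAT3 KO animals lay below the lowest control. Its log2 fold change was -0.15 (SE 0.10, adjusted p = 0.787). Qdpr (ENSMUSG00000015806, chromosome 5, 45434021 to 45450236) regenerates tetrahydrobiopterin, a cofactor that serotonergic neurons need as well, so its reads need not be only glial. It was read at 479.9, 509, 522 and 554 CPM in controls and 397 to 595 (median 472) CPM in STAT3 KO, with STAT3 KO 8 highest, and differed by -0.14 (SE 0.081, adjusted p = 0.747).

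Apod (ENSMUSG00000022548, chromosome 16, 31296192 to 31314808) was the 1 lipid and metabolism gene above 0. It was read at 549, 400.5, 389 and 413 CPM in controls and 349 to 641 (median 469) CPM in STAT3 KO, with STAT3 KO 6 and STAT3 KO 7 at the ends of the whole range. The interval of its log2 fold change, 0.10 (SE 0.13), ran from -0.18 to 0.38. Of the remaining 4 genes, Fa2h differed by -0.06, the sulfatide-making Gal3st1 by -0.11, Trf by -0.10 and the carbonic anhydrase gene Car2 by -0.11, with SE from 0.05 to 0.087. In the same way, Fa2h stood at 89.03 ± 6.53 and 86.8 ± 4.75, Gal3st1 at 26.8 ± 3.39 and 25.1 ± 1.93, Trf at 1181 ± 103 and 1123 ± 89.6 and Car2 at 368 ± 19.6 and 346 ± 46.2 CPM in controls and STAT3 KO. The connexin genes Gjb1 and Gjc3 differed by -0.10 (SE 0.06) and -0.057 (SE 0.046). In controls and STAT3 KO, Gjb1 stood at 50.9 ± 3.49 and 48.04 ± 3.6 CPM and Gjc3 at 135 ± 10.4 and 132 ± 5.19 CPM.

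Myrf (ENSMUSG00000036098, chromosome 19, 10208272 to 10240748), the factor that switches on myelin genes, was read at 159, 138, 137 and 152 CPM in controls and 113 to 159 (median 143) CPM in STAT3 KO. STAT3 KO 8 was the lowest animal and STAT3 KO 5 the highest, and the log2 fold change was -0.068 (SE 0.075, adjusted p = 0.893). Nkx6-2 (ENSMUSG00000041309, chromosome 7, 139579376 to 139582797) is a homeodomain factor of mature oligodendrocytes. It was read at 41.7, 45.9, 47.7 and 49.1 CPM in controls and 43.6 to 60.3 (median 51.8) CPM in STAT3 KO, and 5 of 8 STAT3 KO animals lay above the highest control. Its log2 fold change of 0.15 (SE 0.075) was the largest above 0 among the members, with an adjusted p of 0.677 and an exact permutation p of 0.0707.

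Olig1 and Olig2 are neighbours on chromosome 16 (91269772 to 91271933 and 91225457 to 91228677) and code for helix-loop-helix factors of the lineage. Olig1 was read at 273, 238, 262 and 248 CPM in controls and 207 to 294 (median 235) CPM in STAT3 KO, and Olig2 at 57.95, 48.98, 63.05 and 59.7 and 46.5 to 65.7 (median 53.7) CPM. For both, STAT3 KO 5 was highest and STAT3 KO 8 lowest, with log2 fold changes of -0.11 (SE 0.075) and -0.10 (SE 0.084). Sox10 (ENSMUSG00000033006, chromosome 15, 79154908 to 79165240) was read at 87.3, 83.7, 79.3 and 91.3 CPM in controls and 72.00 to 92.6 (median 87.5) CPM in STAT3 KO. Apart from STAT3 KO 8, its values were close in both genotypes, and the log2 fold change of -0.00084 (SE 0.058) had the smallest size of the 33 and a sign that changed with the scaling. Nkx2-2 (ENSMUSG00000027434, chromosome 2, 147177546 to 147194243), a factor of the step from precursor to oligodendrocyte, was read at 12.4, 10.7, 12.6 and 13.1 CPM in controls and 10.2 to 16.7 (median 13.1) CPM in STAT3 KO, with a log2 fold change of 0.11 (SE 0.10).

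Pdgfra (ENSMUSG00000029231, chromosome 5, 75152292 to 75198215), the receptor for the growth factor that keeps precursors dividing, was read at 59.2, 68.7, 73.9 and 61.2 CPM in controls and 60.3 to 74.8 (median 69.6) CPM in STAT3 KO. All but 1 STAT3 KO animal lay within the control range, and the log2 fold change was 0.015 (SE 0.069, adjusted p = 0.989). Cspg4 (ENSMUSG00000032911, chromosome 9, 56865033 to 56899870) was read at 23.95, 25.1, 25.6 and 28.8 CPM in controls and 21.2 to 29.2 (median 28.1) CPM in STAT3 KO, with a log2 fold change of 0.032 (SE 0.082). Pericytes also make the protein of Cspg4, and 7 of 7 pericyte markers had a fold change below 0 (median -0.18, 0 called). Their part in the values of Cspg4 was not tested.

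Gpr17 (ENSMUSG00000052229), a receptor of committed cells that is lost as they mature, was read at 50.9, 55.01, 49.3 and 57.9 CPM in controls and 49.6 to 66.3 (median 53.97) CPM in STAT3 KO. Only STAT3 KO 10 lay above the control range, and the log2 fold change was 0.022 (SE 0.069). Bcas1, of cells that begin to myelinate, differed by -0.094 (SE 0.077) and Enpp6 by -0.015 (SE 0.14). The interval of Enpp6, -0.32 to 0.29, was among the widest of the members. Bcas1 stood at 540.3 ± 35.6 and 514 ± 57.01 CPM and Enpp6 at 15.2 ± 1.73 and 15.2 ± 3.1 CPM in controls and STAT3 KO (mean ± SD).

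**Figure D3:**
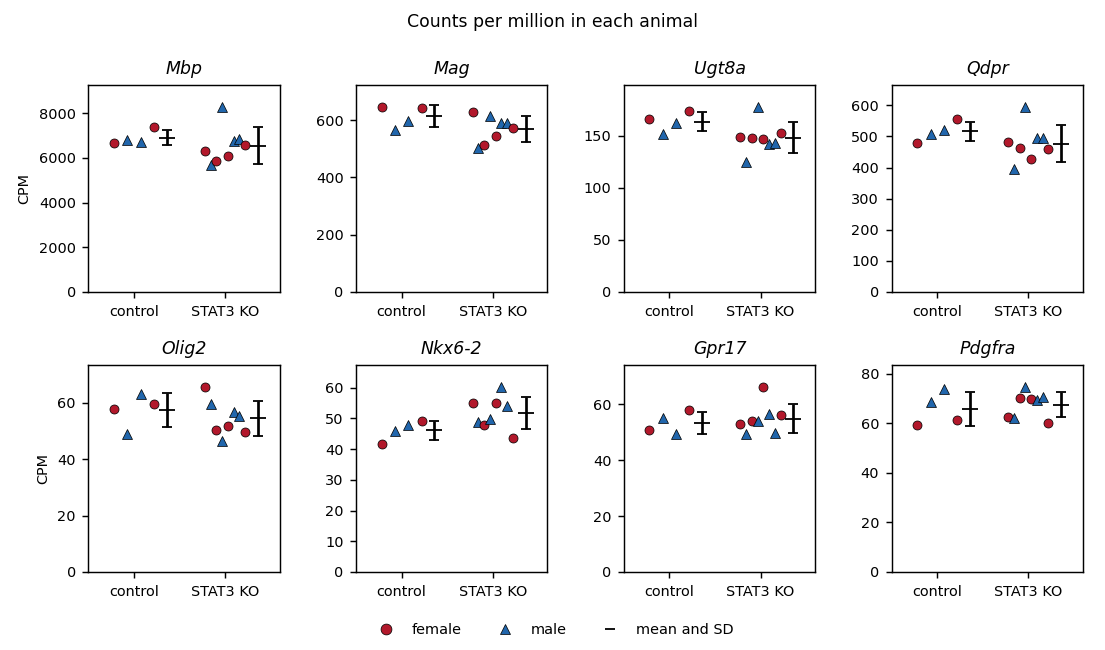
CPM (vertical axes, from 0) of 8 genes in each control and STAT3 KO animal, with females as red circles, males as blue triangles and the mean with SD as black bars. The genotypes overlap in each panel, and the STAT3 KO male above the others in the panels of Mbp, Ugt8a and Qdpr is STAT3 KO 8.

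Leaving out animals moved the count of members at an unadjusted p below 0.05, though 0 were called in each case. It was 2 with all animals and without STAT3 KO 14, 15 or 16, 8 without STAT3 KO 8, 5 without STAT3 KO 5, 4 without control 4, 1 without STAT3 KO 6, 7 or 10, and 0 without control 3, 11 or 13. The share of all genes at that level moved too, from 5.00% without control 3 and 5.31% without control 13 to 6.64% without STAT3 KO 5, 8.96% without control 4 and 10.8% without STAT3 KO 8. Without control 4, STAT3 KO 8 and STAT3 KO 16 together it was 14 of 33, beside 13.1% of all genes, while 0 members and 0.0129% of all genes were called. Of these 14, 13 lay below 0, led by Ugt8a, Ermn at -0.20 (SE 0.055, adjusted p = 0.180) and Mag at -0.19 (SE 0.065, adjusted p = 0.272), and Nkx6-2 lay above 0 at 0.20 (SE 0.075, adjusted p = 0.303). The other 10 were Mbp (-0.16), Car2 (-0.20), Qdpr (-0.19), Plekhb1 (-0.17), Aspa (-0.24), Trf (-0.16), Gjc3 (-0.11), Tmem88b (-0.16), Bcas1 (-0.16) and Gal3st1 (-0.17), with adjusted p from 0.284 to 0.380. Of the members outside these 14, the fold change also moved by over 1.5 times for Mog (-0.10), Mobp (-0.060), Cnp (-0.053), Cldn11 (-0.098), Mal (-0.075), Ppp1r14a (-0.020), Apod (0.040), Myrf (-0.038), Sox10 (0.029), Pdgfra (0.041), Cspg4 (0.10), Gpr17 (0.041) and Enpp6 (-0.11). The median over the members was then -0.098, beside 0.0054 over all genes, whereas without control 13 alone it was -0.036, beside 0.0034. With limma-voom and weights for library quality, 9 members and 10.4% of all genes had an unadjusted p below 0.05 and 0 were called.

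Other genes of the lineage, which are no members, were read for comparison. Of 29 further genes of mature oligodendrocytes, 28 had a fold change below 0 (median -0.07) and 0 were called. Gpr37, a receptor of myelinating cells, was the only one at an unadjusted p below 0.05, at -0.14 (SE 0.063, adjusted p = 0.647). The 21 further genes of precursors and committed cells were divided, 12 below 0 and 9 above (median -0.0072), and 0 were called. The 5 markers of Schwann cells, which make the myelin of peripheral nerve, summed to 2.69 to 4.31 CPM in controls and 2.70 to 4.76 CPM in STAT3 KO. Of these, Pmp2, a lipid-binding protein of peripheral myelin, averaged 0 CPM over the controls and 0.035 CPM over the STAT3 KO animals, below what 3 counts amount to. Neuron markers, 10 genes, summed to 12792 to 13480 CPM in controls and 11941 to 13269 CPM in STAT3 KO.

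The balance of precursor and mature genes was taken in each animal as the mean deviation of Pdgfra and Cspg4 minus that of the 24 mature members, on the log2 scale. It was -0.21, 0.038, 0.044 and -0.13 in controls 3, 4, 11 and 13, and -0.17 to 0.21 (median 0.073) in STAT3 KO. STAT3 KO 6, 7, 10, 14 and 15 lay above every control, and STAT3 KO 5, 8 and 16 lay within the control range, so that the genotypes overlapped. Pdgfra and Cspg4 did not follow each other over the animals (Pearson's r of log2 CPM -0.17), nor did all mature members move together. The balance therefore averages genes that differ in their course.

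Between the sexes, with genotype in the model, 0 of 33 members were called, beside 0.0841% of all genes, and the smallest adjusted p of a member was 0.656. DESeq2 called 0 members and 24 of 20056 genes. At an unadjusted p below 0.05 there was 1 member with either tool, beside 7.2% of all genes in edgeR. With animals left out it was 0 to 3 members, with 3 without STAT3 KO 6 (8.73% of all genes), 2 without STAT3 KO 8 (6.28%), 10 (6.41%) or 15 (7.34%), 0 without STAT3 KO 5 (7.24%), STAT3 KO 16 (6.06%) or control 3 (5.45%), 11 (6.84%) or 13 (7.24%), and 0 (4.35% of all genes) without control 4, STAT3 KO 8 and STAT3 KO 16. The 1 member was Pdgfra, at 63.9 ± 4.82 CPM in females and 69.96 ± 4.44 CPM in males (SD, n = 6 each), with a log2 difference of -0.14 (SE 0.055, female minus male). Members lay on both sides of 0, 19 above and 14 below, with a median of 0.015. Cerebellar genes were higher in females for 10 of 10 (median 1.55, 0 called), ependymal genes for 7 of 7 (0.23, 0 called) and genes of fibroblasts and meninges for 7 of 7 (0.27, 1 called with an adjusted p of 0.0298 in edgeR), and their part in these values was not tested.

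The difference between genotypes was set against sex with an interaction term. It called 0 of 33 members and 0% of all genes, with 0.907 as the smallest adjusted p of a member. DESeq2 called 0 members and 2 of 20056 genes. At an unadjusted p below 0.05 there were 3 members with each tool, beside 5.49% of all genes in edgeR. In edgeR they were the structural genes Ermn at -0.33 (SE 0.12), Mobp at -0.31 (SE 0.14) and Cldn11 at -0.25 (SE 0.11), given as the genotype difference in females minus that in males. The term was below 0 for 28 of 33 members and 50% of all genes, and for 12 of 12 structural genes. Leaving out control 4, STAT3 KO 8 and STAT3 KO 16 leaves 1 male control, control 11. The term was then below 0 for 22 of 33 members and above 0 for 11, beside 48.9% of all genes above 0. Markers of other cells were one-sided in the same term, above 0 for 10 of 10 forebrain genes (median 1.94, 8 with an unadjusted p below 0.05), 9 of 10 cerebellar, 7 of 7 ependymal and 7 of 7 serotonergic genes and below 0 for 7 of 8 endothelial genes, with 0 called. Their part in the members' values was not tested. As mean log2 CPM, STAT3 KO lay below control for 27 of 33 members in females (41.3% of all genes) and for 12 of 33 in males (43.2%), with medians of -0.12 and 0.013. Mbp differed by -0.18 in females and 0.02 in males, and Ermn by -0.24 and 0.08. Each sex has 2 controls, and the difference between the sexes was past no threshold.

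Covariation over the 12 animals showed which members shared their ups and downs. Pearson's r of log2 CPM had a median of 0.26 over the 528 pairs of members (-0.67 to 0.96), and 373 pairs were above 0. Over all 119389878 pairs of genes tested, the median was 0.01 and the central 90% ran from -0.55 to 0.57. All values share the library and its depth, and genes are not independent replicates. Within the structural genes the median was 0.46, within lipid and metabolism 0.51 and within the lineage factors 0.65 (0.52 without STAT3 KO 8 and 0.38 without control 4, STAT3 KO 8 and STAT3 KO 16), while structural genes and precursor genes had a median of -0.12.

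Of all pairs, 6 were tested, with p adjusted over them. Mog followed Mag with r = 0.77 (permutation p = 0.00272, adjusted p = 0.0163) and Spearman's rho = 0.90 (permutation p = 0.00020, adjusted p = 0.0012), and r was 0.81 without the 2 animals farthest from the median of Mog. Mog followed Mobp with r = 0.71 (permutation p = 0.00764, adjusted p = 0.0229), but rho was 0.62 (adjusted permutation p = 0.110). Without the 2 farthest animals r fell to 0.33 (adjusted permutation p = 0.541), so the relation did not hold without them. Mog and Olig2 had r = 0.55 (adjusted permutation p = 0.120) and rho = 0.50 (adjusted permutation p = 0.207), and r = 0.71 (adjusted permutation p = 0.0266) without STAT3 KO 8 but an adjusted permutation p of 0.0788 at the same r without control 4 and STAT3 KO 16 as well. The other 3 pairs passed in neither measure. Pdgfra and Cspg4, both precursor genes, had r = -0.17 (adjusted permutation p = 0.724), Mog and Pdgfra r = -0.27 (0.620) and Mog and Gpr17 r = 0.021 (0.946). For Pdgfra and Cspg4, r was 0.19 without STAT3 KO 8 and -0.70 (adjusted permutation p = 0.0428) without the 2 animals farthest in Pdgfra.

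**Figure D4:**
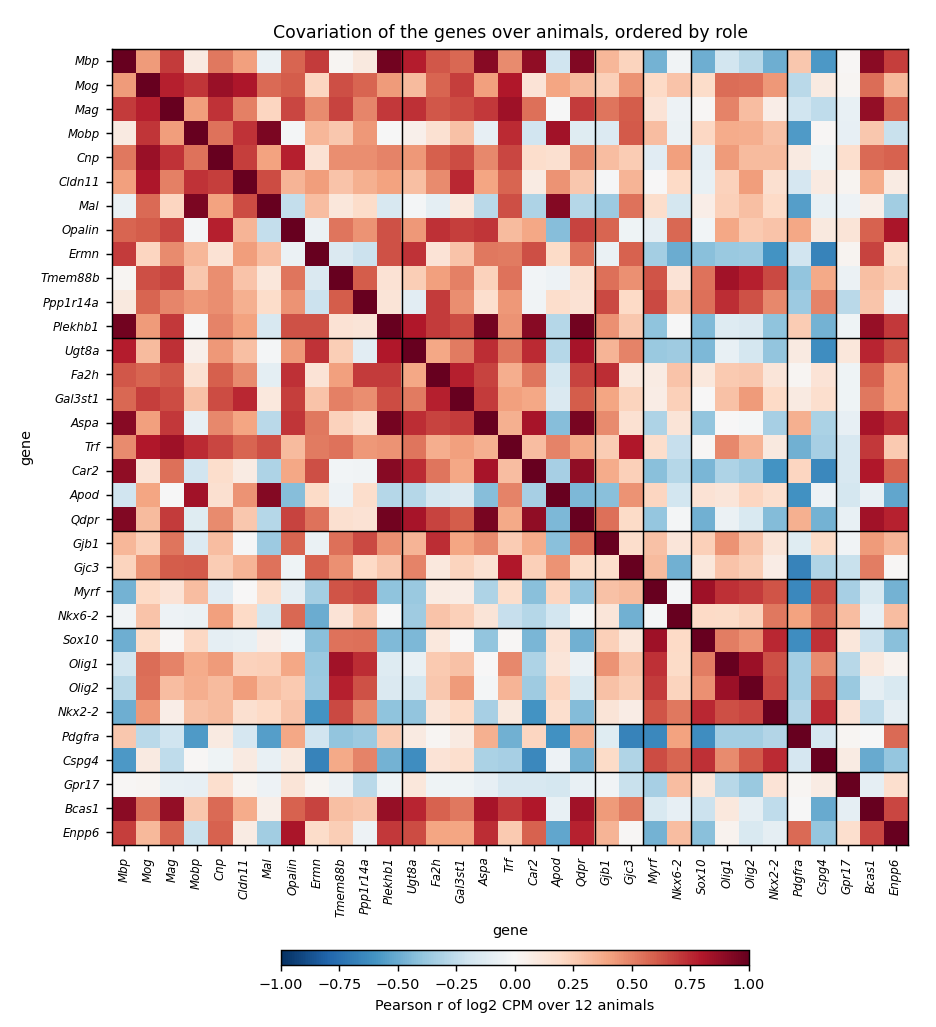
Pearson's r of log2 CPM over 12 animals for each pair of the 33 genes (rows and columns in the same order, lines between roles), red above and blue below 0. Mbp, Plekhb1, Aspa, Car2, Qdpr and Bcas1 form dark red crossings, Mobp, Mal and Apod form others, and Olig1, Olig2, Myrf, Sox10, Nkx2-2 and Cspg4 a block at the lower right.

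The myelin genes did not all move together. These sets were chosen after the correlations were seen and are a description with no test. Mbp, Plekhb1, Qdpr, Aspa, Car2 and Bcas1 followed each other with r from 0.80 to 0.96 (median 0.90), and Mobp, Mal and Apod with r from 0.84 to 0.94. Between these sets the median was -0.18, although Mbp and Mobp both code for proteins of compact myelin. Bcas1, listed with the committed stage, had r = 0.90 with Mbp, 0.67 with Enpp6 and -0.089 with Gpr17. Olig1, Olig2, Myrf, Sox10, Nkx2-2 and Cspg4 followed each other with a median of 0.67. Without STAT3 KO 8 the medians were 0.87 in the Mbp set, 0.92 in the Mobp set, -0.33 between them and 0.49 in the Olig1 set. The median between the Mbp and Olig1 sets was -0.37 with STAT3 KO 8 and 0.074 without it.

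STAT3 KO 8 differed from the other animals along base composition. Over 14893 genes with an annotated transcript, its deviations had r = -0.35 with the GC content of the longest transcript, and in the other 11 libraries r was -0.13 to 0.15. Over the 33 members r was -0.64 in STAT3 KO 8 and -0.28 to 0.47 in the others. The Mbp set has a GC content of 38.5% to 52.8%, the Mobp set 47.8% to 53.3% and the Olig1 set 55.7% to 61.8%. The part of base composition in the levels of the members was not tested.

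**Figure D5:**
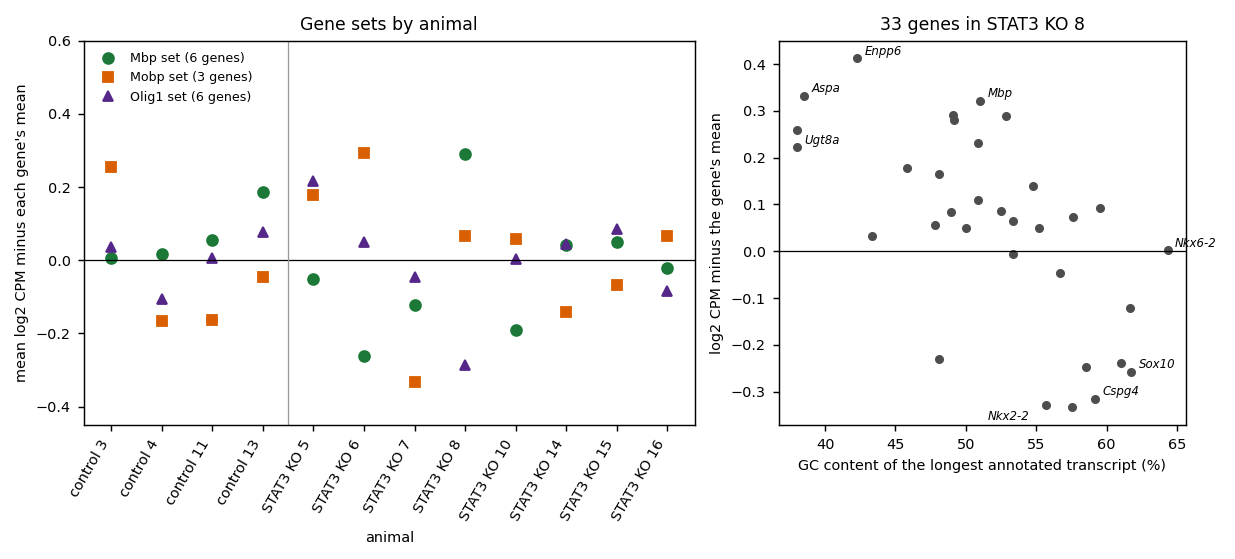
Left, mean log2 CPM of 3 sets of genes minus the mean of each gene (vertical axis) in 12 animals, with 1 symbol per set. Right, the same deviation for each of the 33 genes in STAT3 KO 8 (vertical axis) against the GC content of its longest annotated transcript in percent. The Mbp set is highest and the Olig1 set lowest in STAT3 KO 8, and genes of high GC content lie mostly below 0 there.

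By likeness, the genes outside the members with the highest median r to the 12 structural genes over the 12 libraries included Ercc6l2 (0.67), Cabyr (0.64), Rfc1 (0.63), Mcur1 (0.62), Rwdd4a (0.61), Sccpdh (0.61), Npc2 (0.61), Ilvbl (0.60) and Fignl1 (0.60). The lowest were Rnf216 (-0.67), Adamtsl2 (-0.61), Clip1 (-0.61), Tub (-0.60) and Dlg5 (-0.59).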

How the data were processed

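RNA of the DR of 12 mice was sequenced by the authors as 75-base single reads (RNA integrity numbers above 7), 1 library per animal. Per the submitters' processing notes, bcl2fastq, STAR 2.5.0b, the mm10 build and DESeq2 1.6.3 were used. The deposited files hold raw counts per gene symbol without normalisation. The counter, its annotation and its use of strand are not given in the sources used here, so reads of overlapping genes may be split. Reads assigned to no single gene were left out, leaving 84.2% to 86.1% on genes. No library was a copy of another (66 pairs, differences at least 5.24 times counting noise). The limit that a count of 0 allows, 3 counts, was 0.101 to 0.123 CPM and reflects counting error alone.

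The members, gene lists and tests were chosen with earlier results of these data known. All genes were fitted with edgeR 4.0.16 (two-sided quasi-likelihood test, TMM, filterByExpr with 10 counts per library and 15 in total) in R 4.3.3, with genotype alone, with sex and genotype, and with their interaction. P values were adjusted over all 15453 genes (Benjamini-Hochberg, threshold 0.05). CPM and log2 CPM (prior count 2) were scaled by library totals, and fold changes by TMM. Each SE was obtained from the fold change and its F value. Each gene was also tested with an exact permutation of mean log2 CPM, and pairs with 100000 permutations. Gene positions and exon lengths were taken from GENCODE vM21 (GRCm38). The fits and the permutation test were tested on simulated data.

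The value in each control and the lowest, median and highest value in STAT3 KO are given for Mbp, Mog, Mag, Mobp, Cnp, Pdgfra, Cspg4, Gpr17, Sox10, Olig1, Olig2, Myrf and the 3 members with the largest and the 3 with the smallest fold change, as the rule fixed. Of the 10 genes of highest likeness, 1 is not reported here. Alternatives were DESeq2 1.42.0, limma-voom (limma 3.58.1) with quality weights, RLE, library totals, no filter, sex as a covariate, a prior count of 0.5, mean CPM, and animals left out. Leaving out STAT3 KO 8 for the correlations was chosen after seeing the data. Python 3.11.15 with numpy 2.4.6, pandas 2.3.3 and matplotlib 3.10.9 was used for the rest.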

Additional observations from a re-analysis of the deposited data

Results flagged for a closer look

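Dixon's ratio, the gap of the most extreme animal divided by the range of its group, was taken for each member in controls and in STAT3 KO. It was past its critical value in 3 of 66 groups, and chance gives about 1 in 20, which is 3.3. Sox10 was lowest in STAT3 KO 8, with a log2 CPM of 6.17, where the remaining STAT3 KO animals had 6.42 to 6.53 (ratio 0.693). Enpp6 was lowest in STAT3 KO 6, at 3.22 against 3.83 to 4.32 (ratio 0.554). Gpr17 was highest in STAT3 KO 10, at 6.05 against 5.63 to 5.83 (ratio 0.542).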

How the results depend on the processing

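Under the 19 alternatives of the genotype fit, 0 member values passed the threshold, and 25 of 33 members kept the sign of their fold change, 21 of them below 0. The sign of Sox10 turned with DESeq2 (2.1e-06), RLE (0.00056), library totals (0.022), no filter (0.0018), sex as a covariate (3.5e-05), limma-voom (0.016) and without control 4, STAT3 KO 8 and STAT3 KO 16 (0.029). With library totals, Mobp (0.0041), Mal (0.013) and Enpp6 (0.0076) turned above 0. With 1 animal left out at a time, the fold change ran from -0.054 to 0.0053 for Cnp, -0.080 to 0.072 for Enpp6, -0.020 to 0.065 for Gpr17, -0.063 to 0.10 for Mal, -0.061 to 0.064 for Mobp, -0.12 to 0.019 for Opalin, -0.027 to 0.080 for Pdgfra and -0.031 to 0.034 for Sox10. Without control 13, the fold changes of Cldn11 (-0.0050), Fa2h (-0.013), Gal3st1 (-0.033), Plekhb1 (-0.043) and Aspa (-0.083) shrank by over 1.5 times, as did those of Trf (-0.033) and Gjc3 (-0.0056) without control 3. The number of members with an exact permutation p below 0.05 ran from 0 to 2, with 2 without STAT3 KO 8 (10.04% of all genes) and 1 without STAT3 KO 16 (6.40%), and was 1 without all 3 libraries (11.9%). With 0 members, the share of all genes ran from 5.13% to 8.995% when 1 animal was left out.

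The correlation of Mog and Mobp lost its call as Spearman's rho (0.62), without the 2 farthest animals (0.33) and without the 3 libraries (0.68). That of Pdgfra and Cspg4 passed at -0.70 without the 2 farthest animals and was above 0 without the 3 libraries (0.016) and without STAT3 KO 8 (0.19). Mog and Olig2 passed at 0.71 without STAT3 KO 8 and did not pass without the 3 libraries (adjusted permutation p = 0.0788), and Mog and Gpr17 turned to -0.030 with TMM and -0.0017 with genotype and sex means removed. The cause of these changes was not tested. For the interaction with sex, 0 members were called in any alternative that kept every control, and over all genes 2 were called with DESeq2. Leaving out a control left 1 control of its sex, so calls from those fits are not given. Each member had at least 258 counts in a library, and the number of controls was 4.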
